A study of Homo sapiens with 12 samples.

Results

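The FAT and classical cadherins studied here were 10 genes of cell-cell adhesion, taken by symbol from a count table of 58735 genes. They were FAT1, FAT2, FAT3, FAT4, DCHS1, CDH1, CDH3, CDH2, CDH13, and CTNND1, and each symbol had 1 row in the table. The counts came from RNA sequencing of TIGK cells, a line of human gingival keratinocytes immortalized by hTERT transfection, which stands for a single line. All 4 groups were kept in high glucose (48 mM), in a base medium that, by the study's methods, lacked Arg. TIGK cells were treated with 500 μM L-Arginine (Arg) for 24 or 48 h, and the untreated control received none over the same times. Each group had 3 libraries (replicates A, B, and C), 12 in all. The letters are the replicates of the labels, and no source used here says that they were separate cultures begun on different days. The p-values therefore measure only the spread between these libraries, which may be technical.

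Cadherins are membrane proteins that bind cadherins of the neighboring cell through repeated calcium-dependent domains. Classical cadherins join keratinocytes at adherens junctions, where their tails hold p120-catenin and β-catenin or plakoglobin, and α-catenin links these to actin. FAT and Dachsous proteins are giant relatives of the classical cadherins, and they are known for planar cell polarity, for actin dynamics at cell contacts, and as inputs to the Hippo kinases. In gingival and skin epithelium, E-cadherin is found in all living layers and P-cadherin mainly in the basal layer.

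The 10 genes were chosen by symbol with the log2 fold changes of Arg against control in these libraries already known, so the Arg values below describe them and support nothing. Whether the comparisons of 48 with 24 h also entered that choice is not stated. They use the same libraries, and earlier results of these were also known. The values over time, with their adjusted p, are therefore a description of the 10 genes too.

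RefSeq promoter windows (GRCh38.p14, 250 bases before to 50 after a start site) were matched by symbol for 3 of the 10 genes, FAT1, FAT2, and CDH2. The windows of FAT1 and FAT2 are shown because these were the FAT genes with the highest levels and differed in direction with Arg at 24 h. Capitals mark CpG dinucleotides. The FAT1 window lies at chr4:186726647-186726946 on the minus strand, and the FAT2 window at chr5:151591282-151591581 on the minus strand.
FAT1: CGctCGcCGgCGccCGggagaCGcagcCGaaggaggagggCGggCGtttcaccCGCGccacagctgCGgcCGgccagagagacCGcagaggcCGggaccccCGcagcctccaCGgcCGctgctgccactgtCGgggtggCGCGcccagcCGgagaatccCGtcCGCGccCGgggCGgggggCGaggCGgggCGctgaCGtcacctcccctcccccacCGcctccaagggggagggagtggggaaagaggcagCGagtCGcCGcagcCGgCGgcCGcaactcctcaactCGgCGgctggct
FAT2: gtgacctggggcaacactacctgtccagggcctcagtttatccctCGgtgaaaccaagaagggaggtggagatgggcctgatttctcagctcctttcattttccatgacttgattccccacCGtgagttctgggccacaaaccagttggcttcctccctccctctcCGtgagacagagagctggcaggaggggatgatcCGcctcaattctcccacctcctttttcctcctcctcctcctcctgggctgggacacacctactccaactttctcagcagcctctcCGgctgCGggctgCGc
The FAT1 window held 40 CpG dinucleotides and was 77.3% G and C. The FAT2 window held 7 and was 58% G and C. The median over 35116 windows was 14, 7.61% of windows held as many CpG as FAT1 or more, and 39.3% held as few as FAT2 or fewer. A second FAT1 window, at chr4:186723807-186724106, held 41. Neither the FAT1 windows nor the FAT2 window held the E-box CACCTG, the TEAD motif GGAATG, or the AP-1 motif TGANTCA on either strand, against 20.6%, 14%, and 7.71% of all windows, and none of the 3 motifs contains another. The RefSeq start of FAT2 at 151591331 lies outside the gene model of the count table, which ends at 151568944.

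The libraries held between 16542243 and 19040964 counts. Control replicate B at 48 h stood apart from replicates A and C of its group. Against them, its counts gave a chi-square of 20.9 and 23.9 per degree of freedom, the highest of the replicate pairs, and mitochondrial genes took 1.55% of its counts. Results of the FAT and classical cadherins at 48 h that rest on it are given with and without it. For the lists of other genes below, Arg against control at 48 h is given only with it. Whether those list results rest on it was not tested. Keratinocyte markers (KRT5, KRT14, TP63, ITGA6, ITGB4, and SFN) summed to between 3.38e+04 and 4.57e+04 CPM (counts scaled to a common library total) in every library. Fibroblast markers summed to between 30.2 and 54.4 CPM at 24 h and to between 72.7 and 103 CPM at 48 h. Most of this came from DCN (15.3 to 76.1 CPM) and COL1A1 (10.8 to 27 CPM), while COL1A2 had 2 counts and COL3A1 had 14 in all 12 libraries. Endothelial markers stayed at or under 6.41 CPM, melanocyte markers at or under 3.06 CPM, and leukocyte markers at or under 0.45 CPM.

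Levels are given as TMM-scaled CPM per kilobase of exonic length, so that they can be compared between genes, and errors are SD over 3 libraries. Over the 12 libraries, CDH1 had the highest mean level (83.1 CPM per kb), followed by CDH3 (61.1), CTNND1 (41.0), FAT1 (26.8), and FAT2 (13.3). The ranges of neighbors in this order did not overlap, except that the highest FAT1 library (34.6) lay above the lowest CTNND1 library (32.8). FAT4 (0.680), CDH13 (0.469), CDH2 (0.0936), DCHS1 (0.0693), and FAT3 (0.0121) followed far below, with overlapping ranges between FAT4 and CDH13, between CDH2 and DCHS1, and between DCHS1 and FAT3. TIGK cells thus carried RNA mainly of E-cadherin, P-cadherin, p120-catenin, FAT1, and FAT2. In bulk RNA, fewer cells with a transcript and less of it per cell cannot be told apart.

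**Figure D1:**
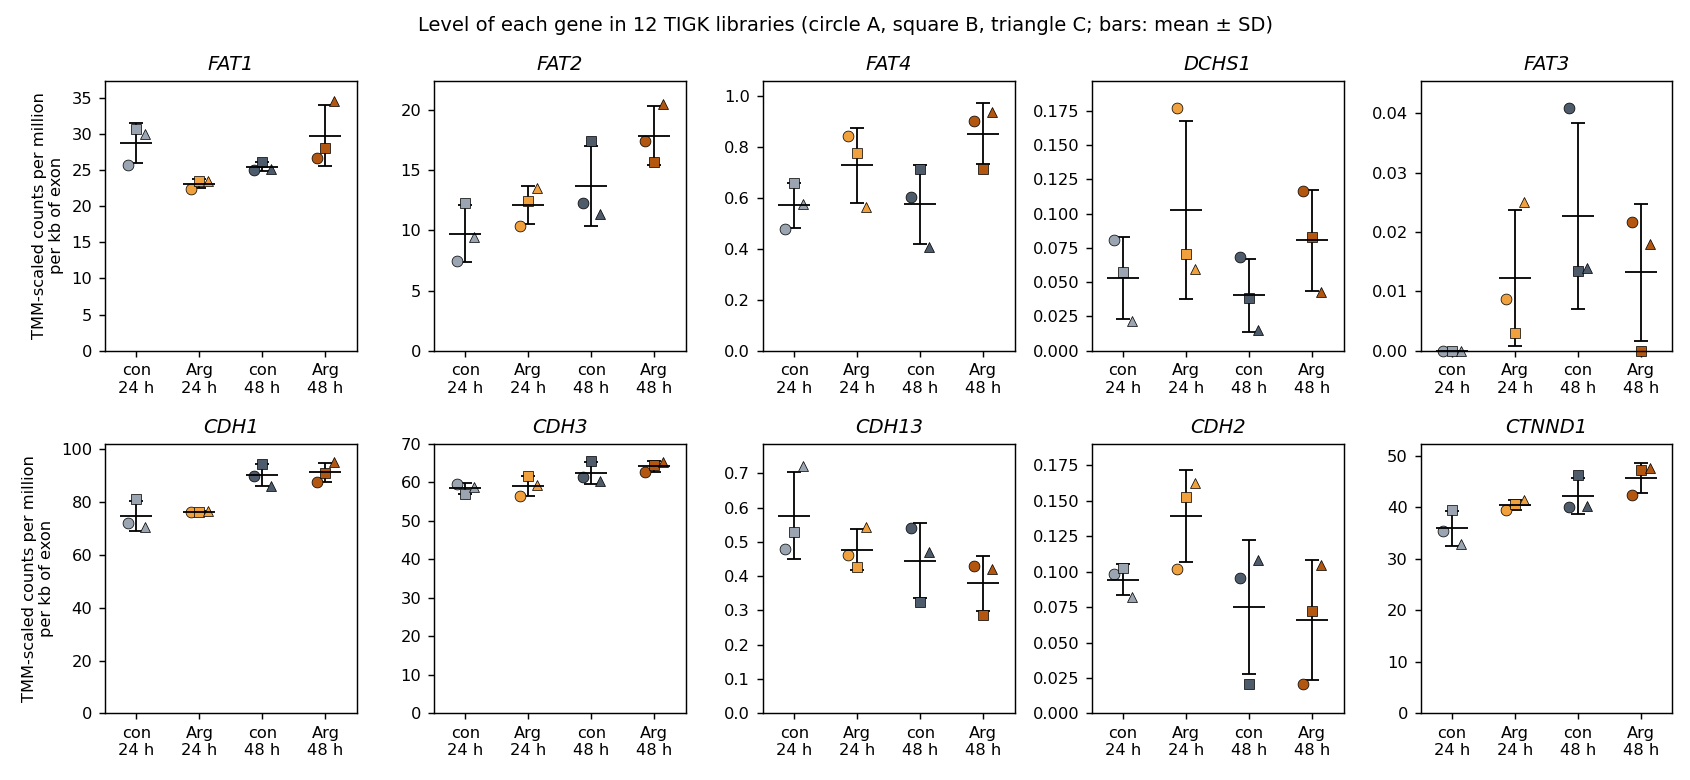
Level of each of the 10 genes (y axis, TMM-scaled CPM per kb of exon, a scale of its own per panel) in the 4 groups (x axis), with a symbol per library and bars for mean ± SD. FAT1 with Arg at 24 h lies below its 24 h control and with Arg at 48 h above its 48 h control, and CDH1 is higher at 48 h than at 24 h in both treatments.

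FAT1 (ENSG00000083857, chr4:186587783-186726722, minus strand) encodes a giant protocadherin that is often mutated in squamous cell carcinoma and that binds actin regulators at cell contacts. At 24 h, FAT1 stood at 25.6, 30.7, and 30.0 CPM per kb in control replicates A, B, and C and at 22.4, 23.4, and 23.5 with Arg. All 3 Arg libraries lay below all 3 control libraries, and the Arg libraries differed little among themselves. The log2 fold change was −0.32 (SE 0.080), and it passed an adjusted p under 0.05. The call was lost without control replicate C (log2 fold change −0.29) and without Arg replicate B (−0.33) or C (−0.33).

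At 48 h, the order was turned. FAT1 stood at 25.1, 26.2, and 25.1 CPM per kb in control replicates A, B, and C and at 26.6, 28.1, and 34.6 with Arg. All 3 Arg libraries now lay above the 3 control libraries, and Arg replicate C was the highest of the 12. The log2 fold change was 0.22 (SE 0.085) and was not called. Without control replicate B it was 0.24 (SE 0.075) and was called. That was the 1 call among the 6 fits with a library left out, which lay between 0.10 and 0.29. None of the 10 alternatives that kept every library called it, with values between 0.13 and 0.23. The difference between the Arg effects at 48 and 24 h was 0.54 (SE 0.12) on the log2 scale. Its adjusted p was 0.287 in edgeR's quasi-likelihood test with Benjamini-Hochberg adjustment. The difference ranged from 0.42 to 0.62 when each library was left out. Without control replicate B at 48 h, it was 0.56 (adjusted p = 0.0513 in the same test) and was not called.

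Over time, the values of FAT1 were lower without Arg and higher with Arg, and the second of these passed the test. Without Arg, the log2 fold change at 48 h against 24 h was −0.18 (SE 0.079, adjusted p = 0.14 in edgeR with Benjamini-Hochberg adjustment), and the groups overlapped. It was −0.20 without control replicate B at 48 h, with the groups apart and no call. With Arg, FAT1 rose by 0.37 (SE 0.080, adjusted p = 0.00187 in the same test), and all 3 libraries at 48 h lay above all 3 at 24 h. This comparison shares the Arg libraries at 24 h, in which FAT1 was lowest. With a correction for exonic length, the rise with Arg was 0.17 and was not called, while the change without Arg was −0.31 and was called.

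FAT2 (ENSG00000086570, chr5:151504093-151568944, minus strand) encodes the FAT protein known for epithelial cells and their migration. FAT2 stood at 7.47, 12.2, and 9.46 CPM per kb in the 24 h control and at 10.4, 12.5, and 13.5 with Arg. At 48 h, it stood at 12.3, 17.5, and 11.3 in the control and at 17.4, 15.7, and 20.5 with Arg. Control replicate B was the highest of its group at both times and overlapped the Arg libraries at both. The log2 fold change with Arg was 0.32 (SE 0.13) at 24 h and 0.38 (SE 0.14) at 48 h, and neither was called. Without control replicate B, it was 0.51 at 24 h and 0.60 (SE 0.079) at 48 h, and both were called. No other fit with a library left out called it. These fits lay between 0.16 and 0.51 at 24 h and between 0.26 and 0.60 at 48 h. With all 6 libraries, FAT2 was called at 24 h with the replicate block (0.34, adjusted p = 0.0406), with length correction and block (0.31, 0.0454), and without the filter (0.31, 0.0117), and at 48 h without the filter (0.38, 3.84e-05), by edgeR with Benjamini-Hochberg adjustment.

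Mean levels of FAT2 were higher at 48 h than at 24 h in both treatments, and the comparison with Arg passed the test. With Arg, it rose by 0.56 (SE 0.095, adjusted p = 0.000195, edgeR with Benjamini-Hochberg adjustment), with every 48 h library above every 24 h library. It was called under every alternative run, with log2 fold changes between 0.38 and 0.65. Without Arg, the log2 fold change was 0.50 (SE 0.18, adjusted p = 0.0677 in the same test). It was called without control replicate B at 24 h (0.69) and without control replicate C at 48 h (0.61), and was 0.28 without control replicate B at 48 h. With all libraries kept, it was also called without the filter (adjusted p = 1.41e-06), with the replicate block (0.00037), with length correction and block (0.00464), and in the model of all 12 libraries (0.028), by edgeR with Benjamini-Hochberg adjustment in each. The difference between these time effects was not called (0.069, SE 0.22, adjusted p = 0.98, edgeR with Benjamini-Hochberg adjustment).

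The ratio of FAT2 to FAT1 per length lay between 0.292 and 0.398 in the 24 h control, and between 0.463 and 0.575 with Arg at 24 h. It lay between 0.451 and 0.667 in the 48 h control and between 0.559 and 0.656 with Arg at 48 h. The 24 h control therefore stood below the other groups, and the groups at 48 h overlapped. FAT1 made up 73.8% ± 3.05 of the summed level of the 5 FAT and Dachsous genes in the 24 h control, 64.2% ± 1.96 with Arg at 24 h, 64.3% ± 4.78 in the 48 h control, and 61.2% ± 2.04 with Arg at 48 h (SD, n = 3 in each). FAT2 made up most of the rest.

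**Figure D2:**
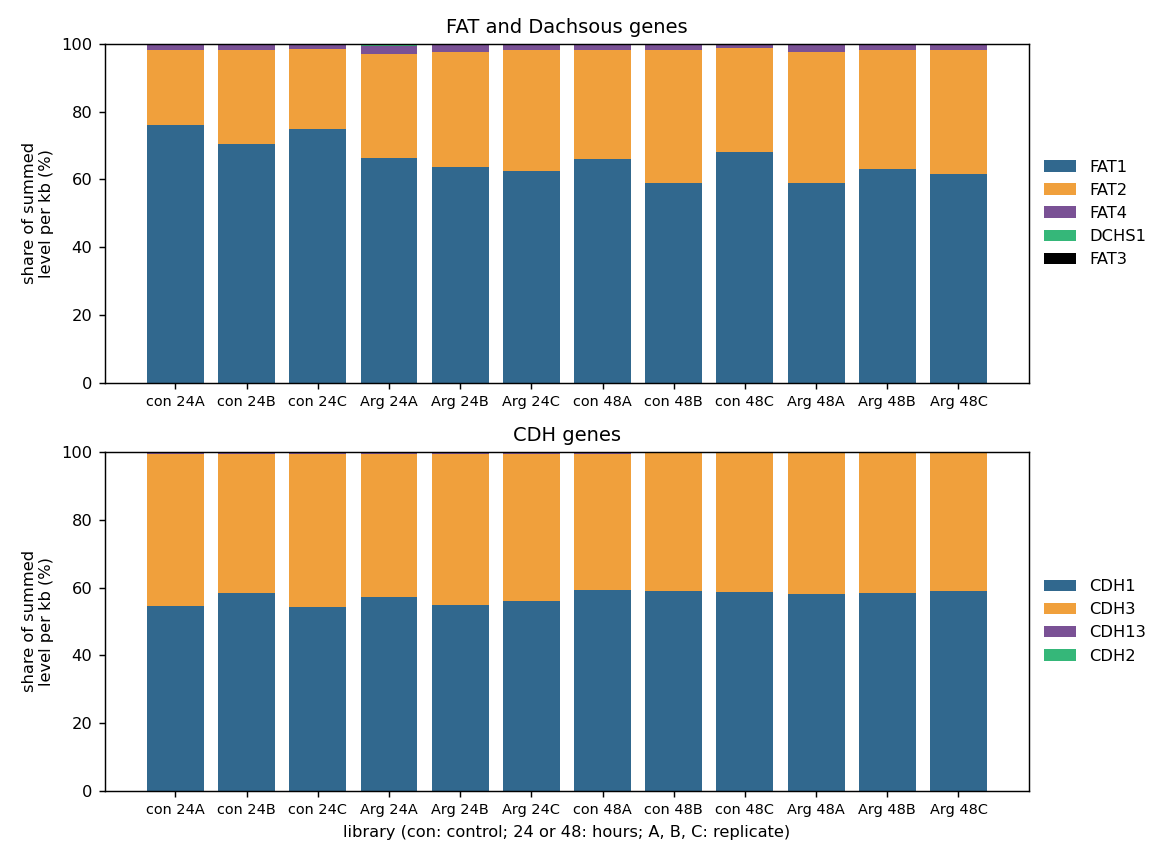
Share of each gene in the summed level per kb (y axis, %) in each of the 12 libraries (x axis), for the 5 FAT and Dachsous genes (top) and the 4 CDH genes (bottom). FAT1 takes a mean of 73.8% in the 24 h control, and its means in the other groups lie between 61.2% and 64.3%. The group means of CDH1 lie between 55.8% and 58.9%.

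FAT4 (ENSG00000196159, chr4:125316399-125492932, plus strand) and DCHS1 (ENSG00000166341, chr11:6621323-6655854, minus strand) encode a receptor and ligand pair of planar cell polarity. FAT4 stood at 0.478, 0.656, and 0.575 CPM per kb in the 24 h control and at 0.841, 0.776, and 0.562 with Arg. The 48 h values were 0.603, 0.713, and 0.408 in the control and 0.901, 0.714, and 0.935 with Arg. The groups overlapped at 24 h and were apart at 48 h, where Arg replicate B lay just above control replicate B. Its log2 fold change was 0.35 (SE 0.18) at 24 h and 0.56 (SE 0.19) at 48 h, and neither was called. Without control replicate B at 48 h, it was 0.75 (SE 0.17) and was called. That was the 1 call among the 6 fits at 48 h with a library left out, which lay between 0.37 and 0.75.

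DCHS1 had few reads, with 16, 11, and 4 counts in the 24 h control and 34, 13, and 12 with Arg. At 48 h, it had 14, 8, and 3 counts in the control and 24, 15, and 8 with Arg. In all 4 groups, replicate A had the most counts and replicate C the fewest. Arg against control gave 0.93 (SE 0.56) at 24 h and 0.98 (SE 0.59) at 48 h on the log2 scale and was not called. In both comparisons, DCHS1 met the minimum of the filter on low counts in more Arg than control libraries, so a positive value was favored. FAT3 (ENSG00000165323, chr11:92352096-92896470, plus strand), known for shaping neurons of the retina, had 0 counts in all 3 libraries of the 24 h control and 3, 1, and 9 with Arg. It had 15, 5, and 5 counts in the 48 h control and 8, 0, and 6 with Arg, and did not pass the filter. With the 0 counts of the 24 h control set to a floor of 3 over the group, the ratio of Arg at 24 h to this control was 4.3. It was 2.0 without Arg replicate C, which held 9 of the 13 counts. The ratio of the 48 h control to the same floor was 7.8, and 4.7 without control replicate A, which held 15 of the 25 counts. The 13 and 25 counts were taken as observed, so these ratios are not lower bounds. The exact Poisson intervals (95%) were 6.92 to 22.2 for the 13 counts and 16.2 to 36.9 for the 25, and cover counting error only.

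CDH1 (ENSG00000039068, chr16:68737225-68835548, plus strand) encodes E-cadherin, the main adhesion protein of epithelial adherens junctions. At 24 h, CDH1 stood at 72.2, 81.3, and 70.7 CPM per kb in the control and at 76.3, 76.1, and 76.6 with Arg. At 48 h, it stood at 89.9, 94.6, and 86.3 in the control and at 87.7, 91.2, and 95.0 with Arg. The treatments overlapped at both times, and all 6 libraries at 48 h lay above all 6 at 24 h. With Arg, the log2 fold change was 0.029 (SE 0.076) at 24 h and 0.014 (SE 0.060) at 48 h.

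CDH1 rose with time in both treatments, by 0.28 (SE 0.076, adjusted p = 0.0252) without Arg and by 0.26 (SE 0.061, adjusted p = 0.00329) with Arg, in edgeR's quasi-likelihood test with Benjamini-Hochberg adjustment. The rise without Arg was not called when control replicate A (0.25) or C (0.23) at 24 h or control replicate A at 48 h (0.28) was left out. The rise with Arg was called in each of the 6 fits with a library left out, with log2 fold changes between 0.23 and 0.29. The summed fibroblast markers were also higher at 48 h, and their part in the changes over time was not tested.

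CDH3 (ENSG00000062038, chr16:68636189-68722616, plus strand) encodes P-cadherin and is the neighbor of CDH1 on the same strand. It stood at 59.7, 57.0, and 58.8 CPM per kb in the 24 h control and at 56.6, 61.7, and 59.3 with Arg. The 48 h values were 61.4, 65.6, and 60.3 in the control and 62.6, 64.6, and 65.3 with Arg. The treatments overlapped at both times, and each treatment was higher at 48 h in all its libraries. The changes were small. The log2 fold change over time was 0.098 (SE 0.068, adjusted p = 0.333) without Arg and 0.12 (SE 0.063, adjusted p = 0.179) with Arg, edgeR with Benjamini-Hochberg adjustment. The log2 fold change over time without Arg was 0.060 when control replicate B at 48 h was left out. With Arg against control, it was 0.016 (SE 0.073) at 24 h and 0.036 (SE 0.059) at 48 h, where it was 0.075 without control replicate B, with the groups apart and no call. CDH1 made up 55.8%, 56.1%, 58.9%, and 58.6% of the summed level of the 4 CDH genes in the 24 h control, Arg at 24 h, the 48 h control, and Arg at 48 h, and CDH3 made up nearly all the rest.

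CDH2 (ENSG00000170558, chr18:27950966-28177446, minus strand), the N-cadherin gene of neural and mesenchymal cells, was near the limit of detection. It had 9, 9, and 7 counts in the 24 h control and 9, 13, and 15 with Arg, and 9, 2, and 10 counts in the 48 h control and 2, 6, and 9 with Arg. The groups overlapped, the gene did not pass the filter on low counts, and a difference was not detectable at this depth. CDH13 (ENSG00000140945, chr16:82626803-83800640, plus strand) encodes T-cadherin, which is held by a lipid anchor and has no tail to bind catenins. It had 99, 105, and 139 counts in the 24 h control and 92, 82, and 113 with Arg. At 48 h, it had 115, 70, and 98 counts in the control and 92, 54, and 82 with Arg. The log2 fold change with Arg was −0.27 (SE 0.21) at 24 h and −0.23 (SE 0.25) at 48 h, and over time it was −0.37 (SE 0.24) without Arg and −0.33 (SE 0.22) with Arg. None of the 4 was called, and the groups overlapped in each. Without control replicate B at 48 h, it was −0.41 with Arg at 48 h, with the Arg libraries below the controls, and −0.19 over time without Arg, and neither was called.

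CTNND1 (ENSG00000198561, chr11:57753243-57819546, plus strand) encodes p120-catenin, which binds the tail of classical cadherins and keeps them at the membrane. It stood at 35.4, 39.5, and 32.8 CPM per kb in the 24 h control and at 39.4, 40.5, and 41.4 with Arg. At 48 h, it stood at 39.9, 46.2, and 40.2 in the control and at 42.4, 47.1, and 47.5 with Arg. Control replicate B was again the highest of its group at both times. With Arg, the log2 fold change was 0.17 (SE 0.080) at 24 h and 0.11 (SE 0.073) at 48 h, and neither was called. Without control replicate B at 48 h, it was 0.19 (SE 0.058) and was called. That was the 1 call among the 6 fits at 48 h with a library left out, which lay between 0.076 and 0.19.

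Over time, CTNND1 rose by 0.18 (SE 0.065, adjusted p = 0.0496, edgeR with Benjamini-Hochberg adjustment) with Arg. The call was kept in 1 of the 6 fits with a library left out, the fit without Arg replicate A at 48 h (0.22), and was lost without any other library (0.15 to 0.19). With the correction for exonic length, it was 0.088. Of the 10 alternatives that kept every library, 4 kept the call, and it was also lost with DESeq2 size factors in edgeR (adjusted p = 0.0511), without the filter (0.0592), with the replicate block (0.0728), and in the model of all 12 libraries (0.116), edgeR with Benjamini-Hochberg adjustment. Without Arg, the log2 fold change was 0.23 (SE 0.087, adjusted p = 0.079 in the same test), with the 48 h libraries above the 24 h libraries. It was called without control replicate B at 24 h (0.30), and with all libraries kept under library size only (0.29), without the filter (0.22), with the block (0.23), and in the model of all 12 libraries (0.23). Without control replicate B at 48 h, it was 0.16 and was not called. The ratio of CTNND1 to CDH1 per length lay between 0.465 and 0.490 in the 24 h control and between 0.517 and 0.541 with Arg at 24 h, and between 0.444 and 0.489 in the 48 h control and between 0.483 and 0.517 with Arg at 48 h.

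**Figure D3:**
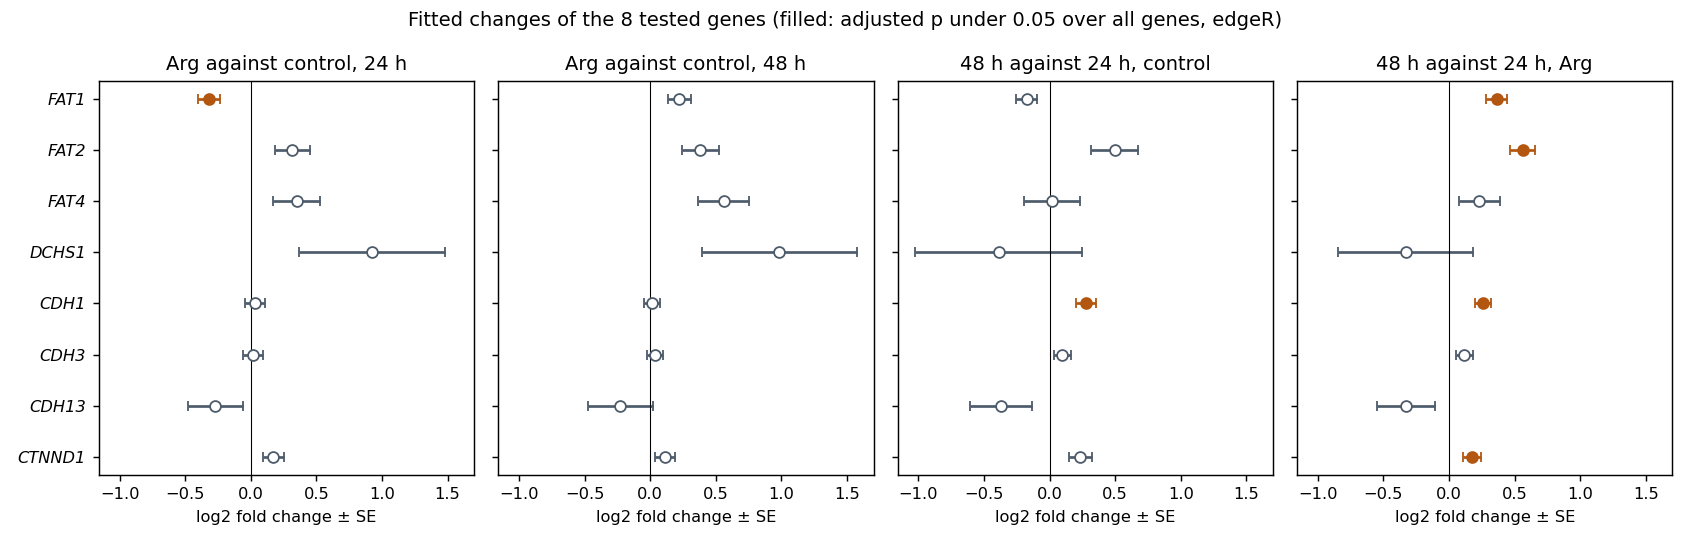
Log2 fold change ± SE (x axis) of the 8 genes that passed the filter on low counts (y axis), for Arg against control at 24 and 48 h and for 48 h against 24 h in each treatment, with filled symbols for an adjusted p under 0.05. FAT1 is the gene called with Arg at 24 h, none is called with Arg at 48 h, CDH1 is called over time without Arg, and FAT1, FAT2, CDH1, and CTNND1 are called over time with Arg.

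Of the 10 genes, 8 passed the filter on low counts in each comparison, and FAT3 and CDH2 did not. With Arg at 24 h, 1 of the 8 was called (FAT1, lower), beside 6.63% of the 14279 genes tested. Arg at 48 h gave 0 calls among the 8 in edgeR and in DESeq2, beside 0.117% of 14562 genes. At an unadjusted p under 0.05 in edgeR, there were 3 of the 8 (FAT1, FAT2, and FAT4). The share of all tested genes at that unadjusted threshold was not counted, here or for the counts below. These counts therefore cannot show whether there was an excess or a lack. Without control replicate B at 48 h, 4 were called (FAT1, FAT2, FAT4, and CTNND1, all higher), beside 15.9% of 14854 genes in either direction and 7.76% higher. The rule knew these contrasts, and nothing is read from the counts. The groups were apart for 1 of the 8 at 24 h, beside 26.2% of all tested genes, and for 2 at 48 h, beside 17.1%.

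For 48 h against 24 h without Arg, 1 of the 8 was called higher (CDH1) and 0 lower, beside 19.9% of 14449 genes called in either direction and 9.90% higher. With Arg, 4 of the 8 were called higher (FAT1, FAT2, CDH1, and CTNND1) and 0 lower, beside 28.3% of 14398 genes in either direction and 14.3% higher. The groups were apart for 3 of the 8 without Arg, beside 39.0% of all tested genes, and for 5 with Arg, beside 42.2%. The median log2 fold change of the 8 over time was 0.058 without Arg and 0.20 with Arg, beside 0.013 and 0.00092 over all tested genes. The difference between the Arg effects gave 0 calls among the 8, beside 0.0132% of 15148 genes, and 1 of the 8 had an unadjusted p under 0.05 (FAT1), which was the 1 that DESeq2 called.

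The FAT and Dachsous genes had 10.8 to 19.3 kb of exon and CDH13 had 11.2 kb, while CDH2, CDH1, CDH3, and CTNND1 had 4.95 to 8.80 kb. Genes with over 10 kb of exon moved as a class over time. Their median log2 fold change was 0.12 without Arg and 0.16 with Arg, where 69.6% of them were higher at 48 h, 493 were called higher, and 101 lower. With Arg against control, their median was 0.024 at 24 h and 0.071 at 48 h. Genes with 2 to 4 kb of exon had medians of −0.048 and −0.078 over time. FAT2 with Arg (0.56) lay above the upper quartile of the long genes (0.39), FAT1 with Arg (0.37) below it, and the part of length in these changes was tested only by the correction given above.

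**Figure D4:**
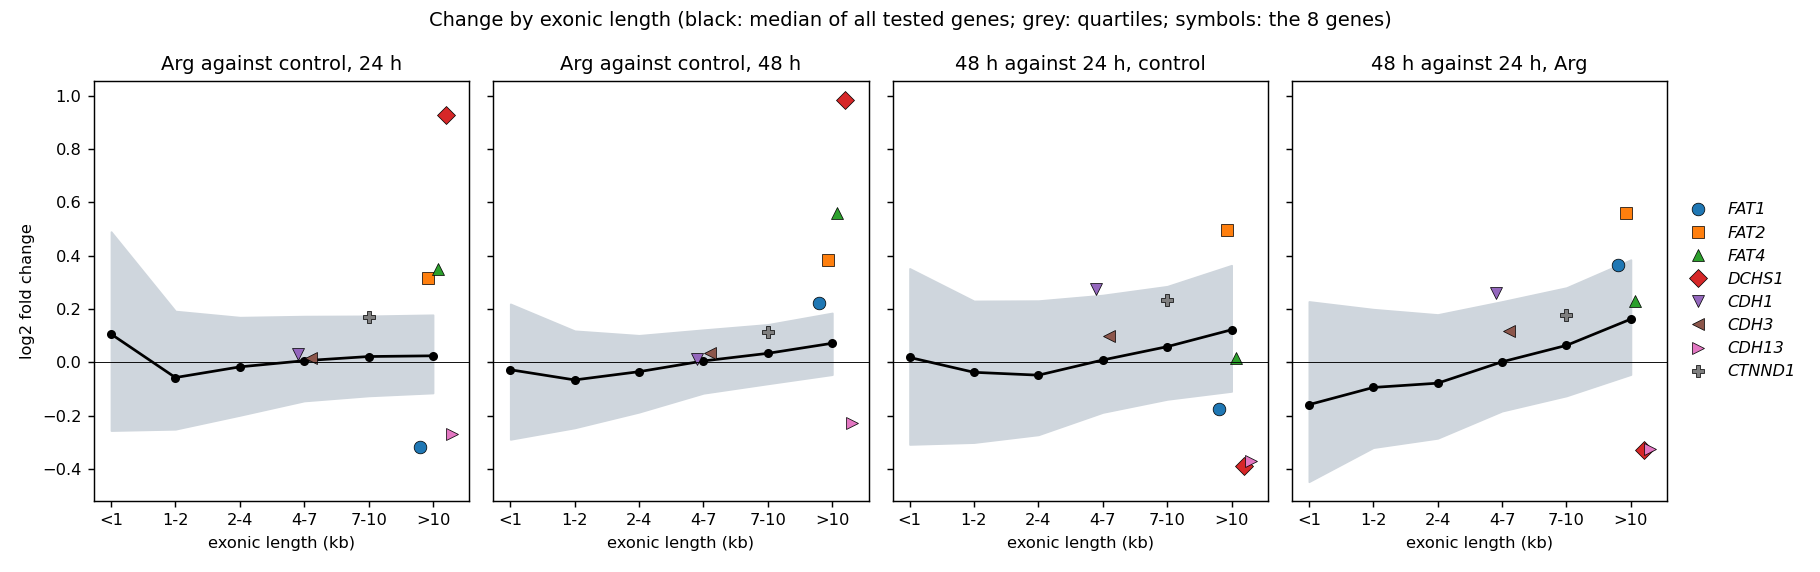
Log2 fold change (y axis) against class of exonic length (x axis, kb) in the 4 comparisons, with the median of all tested genes (black), their quartiles (grey), and the 8 genes as symbols. Over time with Arg, the median rises to 0.16 in genes over 10 kb, and FAT2 lies above the quartile band while DCHS1 and CDH13 lie below it.

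The other genes of the junction and of the FAT pathway were described by lists that were also drawn up with results of these libraries known. Among 19 catenins and adherens junction linkers, 16 passed the filter. With Arg, 1 was called at 24 h (AJUBA, a LIM protein of junctions and of Hippo signaling) and 0 at 48 h in edgeR and in DESeq2, where 3 had an unadjusted p under 0.05. AJUBA stood between 329 and 371 CPM in the 24 h control and between 438 and 493 CPM with Arg, without overlap, and rose by 0.41 (SE 0.079, adjusted p = 0.00458, edgeR with Benjamini-Hochberg adjustment). It was called in each of the 6 fits with a library left out. Over time, 6 rose and 1 fell without Arg, and 8 rose and 3 fell with Arg. Beside these and the counts of the lists below, 19.9% of all tested genes were called over time in either direction and 9.90% higher without Arg, and 28.3% and 14.3% with Arg. For Arg against control, 6.63% of all tested genes were called at 24 h and 0.117% at 48 h. Without control replicate B, the share at 48 h was 15.9%, and the lists were not counted without it. No such share was counted at an unadjusted p under 0.05. The list's median over time was 0.19 and 0.23, beside 0.013 and 0.00092 over all tested genes.

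Among these linkers, the nectin gene NECTIN4 rose by 1.92 (SE 0.28) without Arg and 1.45 (SE 0.19) with Arg, from 2.45 ± 0.48 to 9.25 ± 3.49 CPM and from 4.04 ± 0.84 to 11.0 ± 1.33 CPM (SD, n = 3). PLEKHA7, which ties p120-catenin to microtubules, rose by 0.74 (SE 0.10) without Arg and 0.60 (SE 0.091) with Arg. JUP, the plakoglobin gene and the best expressed of the list, rose by 0.49 (SE 0.10) and 0.56 (SE 0.075). The rise of JUP without Arg was not called when control replicate A (0.45) or C (0.42) at 24 h was left out. CTNNAL1, a gene related to α-catenin, fell by 0.88 (SE 0.12) and 0.90 (SE 0.082). AJUBA fell by 0.49 (SE 0.066) over time with Arg. CTNNB1, the β-catenin gene, was not called in any of the 4 comparisons, with log2 fold changes from −0.064 to 0.11.

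Other classical and type II cadherins except CDH24 were nearly silent, with 3 of 15 passing the filter in at least 1 comparison (CDH10, CDH18, and CDH24). Over the 12 libraries, CDH24 had a mean of 4.17 CPM per kb, above FAT4 (0.680). CDH24, a type II cadherin, stood between 19.6 and 20.8 CPM in the 24 h control and between 11.0 and 12.4 CPM with Arg. It fell by 0.77 (SE 0.13, adjusted p = 0.00128, edgeR with Benjamini-Hochberg adjustment), with no overlap, and the call held in each of the 6 fits with a library left out. At 48 h, its log2 fold change was −0.50 (SE 0.19, adjusted p = 0.272 in the same test), and the groups overlapped.

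Of 7 FAT and Dachsous partners, 5 passed the filter and 0 were called with Arg at either time in edgeR, with 1 at an unadjusted p under 0.05 at each time. DESeq2 called 1 higher at 24 h and 0 at 48 h. FJX1, whose counterpart in the fly phosphorylates FAT and Dachsous proteins, fell over time by 0.57 (SE 0.11) without Arg and 0.80 (SE 0.086) with Arg. ENAH, an actin regulator that binds the FAT1 tail, rose by 0.33 (SE 0.069) with Arg. With the correction for exonic length, ENAH was at 0.14 and was not called. LIX1L fell by 0.56 (SE 0.20) with Arg, and this call was lost without any replicate at 24 h or without Arg replicate B at 48 h, with log2 fold changes between −0.60 and −0.39.

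Of 19 atypical and seven-pass cadherins, 8 rose over time in each treatment and 0 fell. Without Arg, 13 were tested and 5 were not called, beside 9.90% of all tested genes called higher, and with Arg, 12 were tested and 4 were not called, beside 14.3%. PCDH1, CDH23, CDH26, and CELSR3 were among those not called in either treatment, with log2 fold changes from −0.085 to 0.62. Of the list, 0 were called with Arg at 24 or 48 h in edgeR and in DESeq2. At an unadjusted p under 0.05, the counts with Arg were 1 at 24 h and 2 at 48 h. CLSTN3, a calsyntenin, rose by 1.07 (SE 0.16) without Arg and 0.93 (SE 0.14) with Arg. CDHR1 rose by 1.13 (SE 0.18) and 0.60 (SE 0.18). PCDH18, a protocadherin, rose by 0.89 (SE 0.28) and 1.00 (SE 0.17). The polarity gene CELSR2 rose by 0.71 (SE 0.15) and 0.81 (SE 0.092), and CELSR1 by 0.74 (SE 0.17) and 0.68 (SE 0.095).

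Some of these calls rested on single libraries. Without Arg, CELSR1 (0.70 and 0.63) and CELSR2 (0.63 and 0.60) were not called without control replicate A or C at 24 h. PCDH18 without Arg was not called without those (0.71 and 0.80) or without control replicate B at 48 h (0.54), and CDHR1 with Arg was not called without replicate A at 24 h (0.48) or at 48 h (0.34).

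All 13 genes of the Hippo kinase cassette passed the filter, and 0 were called with Arg at either time in edgeR and in DESeq2, with 4 at 24 h and 2 at 48 h at an unadjusted p under 0.05. Over time without Arg, the kinase gene TAOK2 rose by 0.33 (SE 0.092), and the scaffold gene SAV1 fell by 0.41 (SE 0.11). With Arg, TAOK3 (0.35), LATS1 (0.32), and TAOK2 (0.28) rose, while SAV1 fell by 0.35, FRMD6 by 0.24, and NF2 by 0.22. With the correction for exonic length, TAOK3 was at 0.23 and was not called. SAV1 and LATS1 with Arg were called in each fit with a library left out. TAOK3 was not called without Arg replicate C at 24 h (0.29) or 48 h (0.27), and FRMD6 was not without Arg replicate B (−0.23) or C (−0.23) at 48 h. TAOK2 with Arg was lost without replicate A (0.17) or C (0.29) at 24 h or B (0.31) or C (0.20) at 48 h, and NF2 without replicate A (−0.18) or B (−0.20) at 24 h or A (−0.17) or B (−0.21) at 48 h. Without Arg, the call of SAV1 needed control replicates A and C at 24 h and A at 48 h (−0.37, −0.37, and −0.33 without each), and that of TAOK2 needed A and C at 24 h and A and B at 48 h (0.29, 0.34, 0.36, and 0.25 without each).

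Among 10 transcription factors known for control of CDH1, edgeR called 1 higher and 1 lower of the 8 tested with Arg at 24 h, and DESeq2 called 1 higher and 2 lower. SNAI2, a repressor of CDH1, stood between 114 and 148 CPM in the control and between 90.2 and 96.2 CPM with Arg. It fell by 0.49 (SE 0.095, adjusted p = 0.00471, edgeR with Benjamini-Hochberg adjustment), and the call held in each of the 6 fits with a library left out. GRHL2, an activator of CDH1, stood between 88.8 and 103 CPM in the control and between 114 and 126 CPM with Arg. It rose by 0.35 (SE 0.086, adjusted p = 0.0205 in the same test), and was not called without control replicate A (0.32) or C (0.31) or Arg replicate B (0.31) or C (0.35). CDH1 itself was at 0.029 in this comparison. At 48 h, edgeR called 0 of 9, with 2 at an unadjusted p under 0.05, and DESeq2 called 1 lower. SNAI2 was then at −0.36 (adjusted p = 0.133) and GRHL2 at 0.22 (adjusted p = 0.341), edgeR with Benjamini-Hochberg adjustment.

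Over time, SNAI2 fell by 0.56 (SE 0.10) without Arg and 0.42 (SE 0.075) with Arg. GRHL2 rose by 0.45 (SE 0.11) and 0.31 (SE 0.070), and the first was not called without control replicate A (0.42) or C (0.40) at 24 h. TWIST2 fell by 0.79 (SE 0.25) and 0.55 (SE 0.15), and the first was not called without control replicate A (−0.72) or C (−0.67) at 24 h or B (−0.53) or C (−0.82) at 48 h. OVOL1 rose by 0.80 (SE 0.14) with Arg, as did TWIST1 by 0.35 (SE 0.11), which was not called without Arg replicate A (0.32) or C (0.35) at 24 h or A at 48 h (0.25).

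Of 7 genes of cadherin processing and turnover, 0 were called with Arg at either time in edgeR and in DESeq2, and 0 had an unadjusted p under 0.05. ADAM10, the protease that sheds E-cadherin, rose over time by 0.33 (SE 0.081) without Arg and 0.30 (SE 0.068) with Arg, and FURIN (0.33) and ADAM17 (0.28) rose with Arg. With the correction for exonic length, ADAM10 was at 0.19 and 0.11 and ADAM17 with Arg at 0.15, and none of these was called. ADAM10 without Arg was also not called without control replicate A (0.27) or C (0.34) at 24 h, nor ADAM17 without Arg replicate C at 48 h (0.25).

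**Figure D5:**
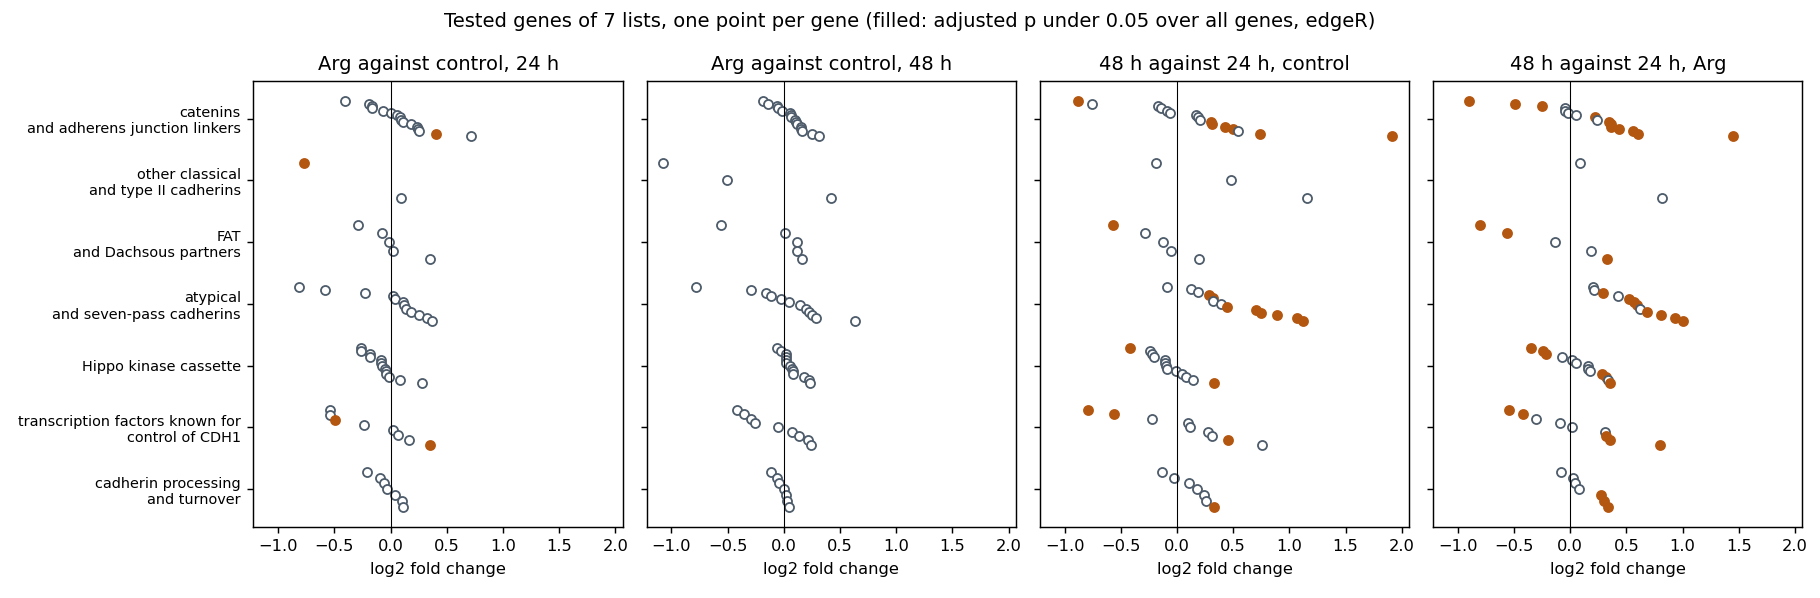
Log2 fold change (x axis) of each tested gene of the 7 lists (y axis) in the 4 comparisons, with filled points for an adjusted p under 0.05. With Arg at 48 h no point is filled, and over time the filled points of the atypical and seven-pass cadherins all lie above 0.

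The levels of the 10 genes except FAT3 and CDH2, which did not pass the filter, were also compared with those of other genes. This used all 15148 tested genes over the 12 libraries and Pearson's r of log2 CPM, as a description. The libraries share treatment, time, and a culture, so the r holds these differences. CDH1 was most like MUC16, a membrane mucin (r = 0.983), IKZF2 (0.977), and TMPRSS13 (0.977). FAT2 was most like PIK3R1 (0.974), NCOA2 (0.972), and STON2 (0.966). CTNND1 was most like SDK1 (0.981), TSC2 (0.975), and TRAPPC11 (0.972). FAT1 had lower values, with UBR4 (0.916), AC068533.2 (0.887), and GREB1L (0.879) at the top. CDH3 was most like NBPF19 (0.972), FAT4 like ZNF595 (0.965), CDH13 like C2orf74 (0.924), and DCHS1 like B4GALT1-AS1 (0.857).

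Among the 10 genes themselves, again without FAT3 and CDH2, the r was 0.889 for FAT2 and CTNND1, 0.854 for CDH1 and CTNND1, and 0.823 for FAT2 and CDH1. FAT1 was less like them, with 0.372 to FAT2, 0.339 to CDH1, and 0.178 to CTNND1. CDH13 had an r of −0.814 with CTNND1 and of −0.646 with CDH1. Genes that overlap the 10 on the genome held few counts. The largest was FTLP14, a pseudogene inside CDH1 on the same strand, with 202 counts in all beside 111736 for CDH1. AC126773.2, antisense to CDH3, had 56 counts, and AC011337.1, antisense to FAT2, had 42, and the strand setting of the counting is not given in the sources used here.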

How the data were processed

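RNA sequencing of TIGK cells gave 12 libraries in 4 groups, as labelled. The authors filtered reads with fastp, used STAR for mapping to GRCh38 (hg38), and made counts of each gene with featureCounts, per the submitters' processing notes. The deposited counts are raw integers, not normalized. The annotation release, strand setting, and versions are not given in the sources used here. Coordinates and exonic lengths are those of the deposited table, and 0 columns of other samples were left out.

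Groups were compared with edgeR 4.0.16 in R 4.3.3 (TMM, filterByExpr, quasi-likelihood test, no block), with Benjamini-Hochberg adjustment over all tested genes and a threshold of 0.05. The scripts were tested on simulated data. Alternatives were DESeq2 1.42.0 (on all genes with a count, and on the genes kept by the filter), its size factors within edgeR, scaling by library size alone, leaving out the filter, at least 10 counts in every library, the replicate block, correction for exonic length (lowess, span 0.3, prior count 2) with and without the block, all 12 libraries in 1 model, and leaving out each library. The authors' comparisons were not used. Named were all 10 genes and at most 5 called genes per list and comparison with the largest change. For most lists, the best expressed gene was also named. In the Hippo list it was MOB1A (29.8 CPM per kb), which was not called in any comparison. In the atypical list it was CLSTN1 (41.8), which rose over time by 0.29 in each treatment. Without Arg, the CLSTN1 call held in 2 of the 6 fits with a library left out. Also named were up to 3 genes most like each of the 10 that passed the filter, and genes that overlap the 10. Beyond this rule, CTNNB1 was named after its values were seen. The counting of CpG dinucleotides was also chosen after seeing the windows. The 10 genes and the lists were chosen with earlier results of these data known. Counting error alone is small for genes with many counts and large for DCHS1, FAT3, and CDH2.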

Additional observations from a re-analysis of the deposited data

Results flagged for a closer look

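FAT1 was flagged because its Arg and control groups were apart at both times, in opposite orders. All 3 Arg libraries lay below the 3 control libraries at 24 h and above them at 48 h. The Arg effect at 48 h was itself not called (adjusted p = 0.292, edgeR's quasi-likelihood test with Benjamini-Hochberg adjustment). Groups were apart in either direction for 26.2% of all tested genes at 24 h and 17.1% at 48 h. The rule was applied to the 10 genes, and the share of all genes that would meet it was not counted. The Arg effect at 48 h minus that at 24 h was 0.54 on the log2 scale (SE 0.12, unadjusted p = 0.000261). Its adjusted p was 0.287 in edgeR's quasi-likelihood test and 0.0106 in DESeq2, with Benjamini-Hochberg adjustment over all tested genes, and 0.000379 in edgeR without the filter. On the genes kept by the filter, an alternative chosen after seeing the data, DESeq2 gave an adjusted p of 0.0386. The call therefore changed with the tool and with the filter. Over the alternatives that kept every library, the adjusted p of edgeR and DESeq2 lay between 0.000379 and 0.297 (Benjamini-Hochberg). FAT1 was proposed with these libraries known, and the value is a description. At 24 h, the mitochondrial share of counts lay between 0.624% and 0.802% with Arg and between 1.2% and 1.3% in the control. At 48 h, it was 1.14%, 1.31%, and 1.16% in Arg replicates A, B, and C. The 48 h control replicates stood at 0.906%, 1.55%, and 0.707%, so the groups overlapped at that time. The part of this share in the FAT1 values was not tested. No other gene of the 10 met a rule for a closer look, and the groups of 3 libraries were too small for the check on outlying samples.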

How the results depend on the processing

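Counts of the 10 genes called moved with several choices. At 24 h, the main count of 1 became 2 without the filter, with the replicate block, and with length correction and block, and lay between 0 and 2 with each library left out. At 48 h, 0 became 2 without the filter and lay between 0 and 4. Over time without Arg, 1 became 2 with library size only, 4 without the filter, 3 with the block, 2 with length correction, 3 with length correction and block, and 3 in the model of all 12 libraries, and lay between 0 and 3. With Arg, 4 became 2 with length correction, with or without the block, 5 with library size only, and 3 with DESeq2 size factors in edgeR, without the filter, with the block, and in the model of all 12 libraries, and lay between 3 and 4 with each library left out. For the difference of the Arg effects, 0 became 1 with DESeq2, with DESeq2 on the genes kept by the filter (chosen after seeing the data), and without the filter. All-gene calls under some of these settings are given below, but no share of all tested genes is set beside each count. No excess or lack is therefore read from these counts. The cause of their moves was not tested.

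Same-letter libraries were little alike, and the values do not settle whether the letters mark pairs. The 12 correlations of deviations between same-letter libraries lay between −0.0615 and 0.135. Libraries best correlated with their own letter numbered 2 and 3 of 6 in the Arg comparisons at 24 and 48 h. In the time comparisons without and with Arg, they numbered 4 and 0 of 6. Under the block, all-gene calls at 48 h went from 0 higher and 17 lower to 43 and 141. They were 42 and 127 with DESeq2, 199 and 374 without the filter, 24 and 99 with length correction and block, 4 and 37 in the model of all 12 libraries, and 1152 and 1213 without control replicate B. With library size only, all-gene calls over time went from 1431 higher and 1451 lower to 1845 and 1008 without Arg and from 2060 and 2012 to 2568 and 1453 with Arg. For the difference of the Arg effects, 2 and 0 became 9 and 12 with DESeq2 and 51 and 37 without the filter.

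Direction changed for genes that were not called. FAT4 over time without Arg (0.018) was −0.00076 with the block, −0.12 with length correction, and −0.14 with both. With each library left out, it lay between −0.17 and 0.21, and DCHS1 between −0.98 and 0.033 without Arg and between −0.71 and 0.32 with Arg. CDH1 lay between −0.014 and 0.091 at 24 h and between −0.019 and 0.050 at 48 h with Arg, and CDH3 between −0.017 and 0.044 at 24 h. For the difference of the Arg effects, the ranges were −0.12 to 0.28 for FAT2, −0.37 to 0.71 for DCHS1, −0.069 to 0.026 for CDH1, −0.011 to 0.058 for CDH3, −0.15 to 0.21 for CDH13, and −0.12 to 0.016 for CTNND1. FAT3 and CDH2 did not pass the filter with all libraries kept. Of the listed genes named, calls were also lost with library size only (TWIST2 without Arg, and LIX1L, NF2, and FRMD6 with Arg), with length correction, alone or with the block (TAOK2 in both treatments, LIX1L, CDHR1, and LATS1 with Arg), in the model of all 12 libraries (LIX1L, NF2, TAOK2, TWIST1, and TWIST2 with Arg), for NF2 without the filter and with the block, and for LIX1L with DESeq2.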
